A study of Mus musculus with 6 samples.

Results

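The osteoblast transcription factors Sp7, Dlx3, Dlx5, Dlx6 and Atf4 were examined as a group of named genes, 5 of 49943 RefSeq genes with a place in the mouse genome. ATAC-seq, which marks accessible DNA by the insertion of adapters with the transposase Tn5, was available as a list of peaks for each of 6 libraries. Peaks that shared at least 1 bp were merged into regions, and 60 of the 89410 regions lay within 50 kb of the genes. The genes were taken by name.

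Sp7, also called osterix, is a zinc finger factor that committed osteoblasts need, acting after Runx2. Dlx3, Dlx5 and Dlx6 are homeodomain factors of the distal-less family, which lie in pairs in the genome and take part in the activation of osteoblast genes. Atf4 is a basic leucine zipper factor that osteoblasts use for amino acid uptake and osteocalcin expression and that every cell uses in the integrated stress response, where its protein is controlled mainly through translation.

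Both groups were immortalized mouse osteoblast cells grown in culture. OB Fam20c f/f carried floxed Fam20c, the gene of a secretory pathway kinase that phosphorylates matrix proteins of bone and teeth, and the labels call these libraries control. OB Fam20c KO was derived from that line with a lentivirus that expresses Cre recombinase, and it is a single line, so that the deletion and the derivation of the line cannot be told apart. There were 3 libraries in each group. Nothing in the labels says that libraries of a group were separate cultures, and the p-values therefore measure only the spread between these libraries, which may be technical.

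The f/f lists held 64033, 62781 and 74797 peaks and the KO lists 64141, 64582 and 32958. KO replicate 3 therefore stood apart, and each result is given with it and, where it matters, without it. Read counts were not used here, so that a missing peak means no peak at the authors' q threshold of 0.05 and not closed chromatin. The deletion could not be seen in the peaks: of the 3 regions within 3 kb of Fam20c, none was confined to the f/f or to the KO libraries. A peak lay within 3 kb of 9 of 11 osteoblast markers in all 6 libraries, Sp7 among them, and of Ibsp and Bglap in none. The same was true in all 6 libraries of 3 of 5 cartilage, 2 of 4 fat, 1 of 4 muscle, 1 of 5 blood and 1 of 3 epithelial markers, so that a peak near a marker did not by itself name a cell type here.

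The 5 genes lay on 3 chromosomes, in coordinates of GRCm38. Sp7 spans chr15:102356603-102367035 and had 17 regions in its window. Dlx3 spans chr11:95120117-95125296, next to Dlx4, and had 21. Dlx6, at chr6:6863334-6867970, and Dlx5, at chr6:6877801-6882068, are neighbours whose windows overlapped, with 8 and 7 regions, of which 7 were the same. Atf4 spans chr15:80255184-80257545 and had 14 regions. Per 100 kb of window this came to 20 regions for Dlx3, 15.4 for Sp7, 13.7 for Atf4, 7.65 for Dlx6 and 6.71 for Dlx5. Among the windows of all 21887 protein-coding genes these densities stood at percentiles 99.4, 94.4, 90.0, 61.9 and 56.1. The windows of Sp7, Atf4 and Dlx3 also hold promoters of other genes, such as Sp1, Myg1, Mief1 and Itga3. No annotated gene was overlapped by 12 of the 13 regions before Dlx3 and by 3 of the 7 after it. Around Sp7 this held for 0 of 7 regions at lower coordinates than the gene and 7 of 8 at higher ones. The median width of the 60 regions was 810.5 bp, against 639 bp for all regions.

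**Figure D1:**
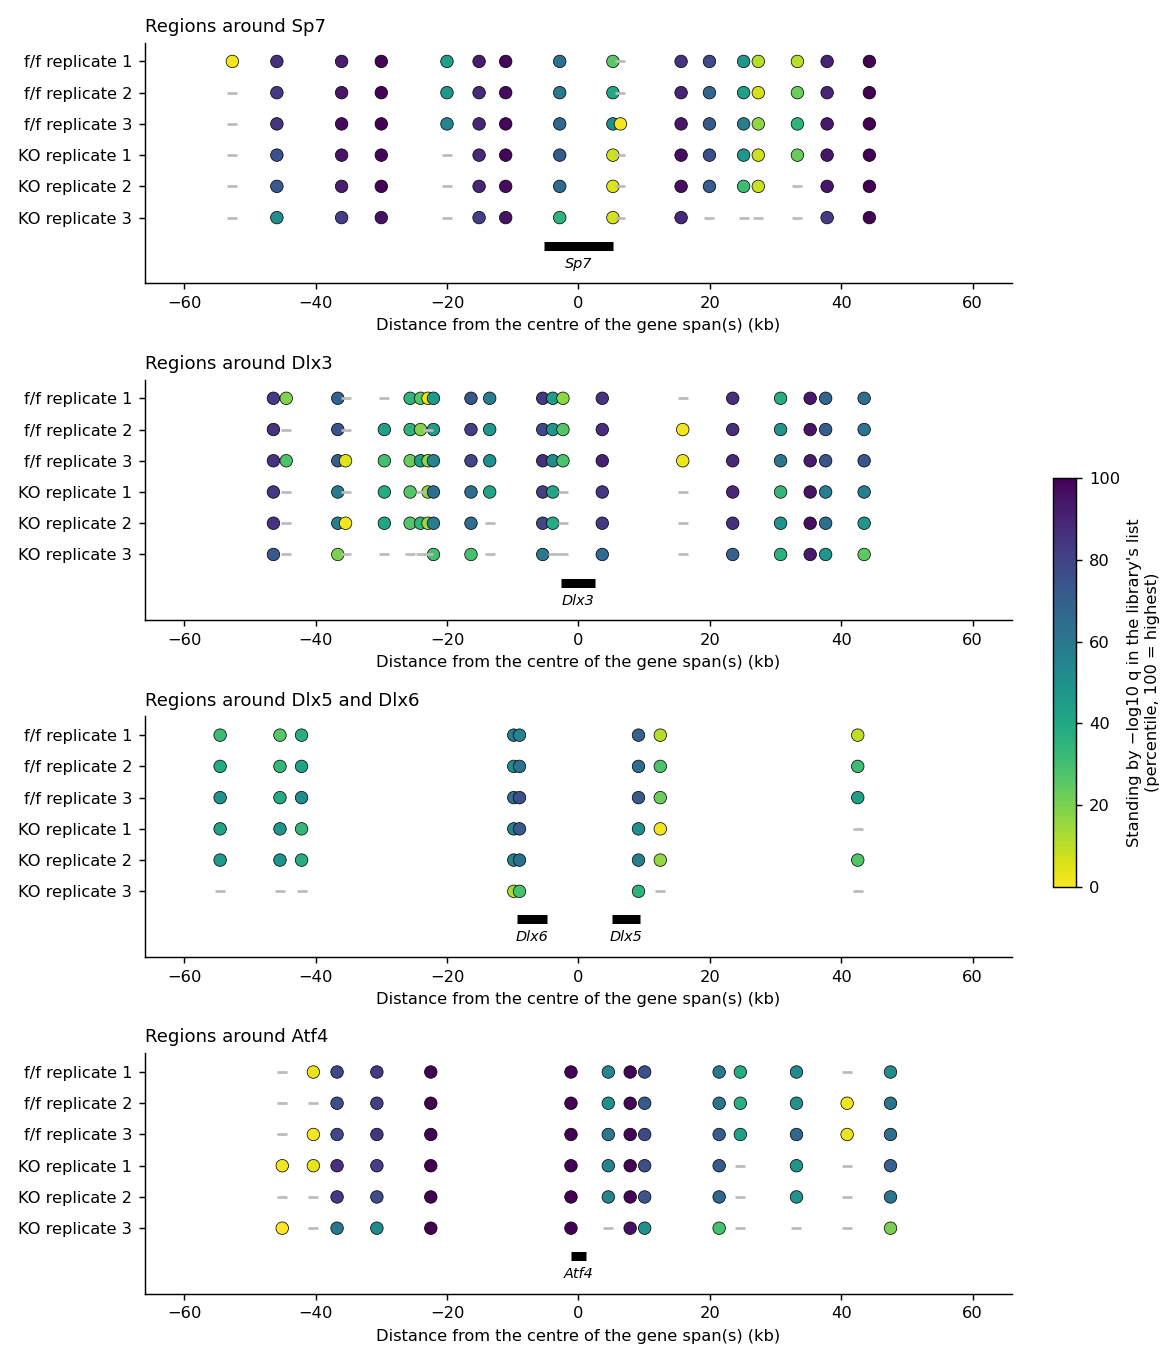
Regions within 50 kb of Sp7, Dlx3, Dlx5 and Dlx6, and Atf4 by distance from the centre of the gene span (kb), 1 line per library; a filled circle is a peak, coloured by its standing by −log10 q in that library's list (percentile, 100 highest), and a grey dash is no peak. Dashes are most frequent in KO replicate 3, and the strongest regions, such as the one over the start of Atf4, are dark in all 6 libraries.

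Atf4 was the member whose RefSeq promoter sequence could be set beside its peak, and the sequence is shown because the peak summits of 5 of the 6 libraries fell within it. It covers chr15:80254934-80255233 of GRCm38.p6 on the plus strand, from 250 bases before to 50 after the transcript start. Capitals mark the CCAAT boxes and the letters CGTCA, which are TGACG on the other strand.
Atf4 promoter: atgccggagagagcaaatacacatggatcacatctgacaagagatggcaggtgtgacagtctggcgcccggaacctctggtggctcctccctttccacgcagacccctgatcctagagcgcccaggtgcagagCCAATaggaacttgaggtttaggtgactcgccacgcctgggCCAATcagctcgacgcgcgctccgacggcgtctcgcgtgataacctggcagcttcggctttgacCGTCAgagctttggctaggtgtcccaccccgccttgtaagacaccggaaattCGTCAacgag
The CCAAT boxes, classical sites of the factor NF-Y, began at positions -117 and -76 from the start, and 37.4% of 32851 RefSeq promoters of this length held 1 or more on either strand. CGTCA, the conserved part of a cAMP response element, began at positions -12 and 40, and 20.8% of promoters held it. E-boxes, CANNTG, were found 4 times, as in 72.3% of promoters at least once. Both strands were searched, and the whole cAMP response element TGACGTCA, the C/EBP-ATF element TGATGNAAT, the AP-1 site TGANTCA, the TATA box TATAAA, the GC box GGGCGG and the homeodomain core TAATTA were not in this window. They were found in 1.79%, 0.965%, 7.81%, 13.6%, 35.7% and 5.29% of promoters respectively. Of the 17 RefSeq promoters of this length within 50 kb of the 5 genes, 10 overlapped a region found in all libraries (58.8%, against 38.3% of all promoters).

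The first question was how many regions around these genes had a peak in each group. In the 3 f/f libraries, 54, 53 and 58 of the 60 regions had a peak (55.0 ± 2.65, SD, n = 3), and in the KO libraries 49, 48 and 33 (43.3 ± 8.96, SD, n = 3). Every KO library was below every f/f library. The difference of -11.7 regions had p = 0.1 in a two-sided exact permutation test, the smallest p that 3 against 3 can give, and it was -6.5 without KO replicate 3. The share of regions with a peak was 88.3% to 96.7% in f/f, 81.7% and 80.0% in KO replicates 1 and 2, and 55.0% in KO replicate 3. Over all 89410 regions it was 68.8% to 82.7% in f/f, 69.6% and 70.9% in KO replicates 1 and 2, and 35.8% in KO replicate 3, so that KO replicates 1 and 2 were above the first 2 f/f libraries and below f/f replicate 3 genome-wide. When each list was cut to its strongest peaks so that all lists were equally long, the difference at the members was -1.33 regions (p = 0.3, exact permutation test).

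Sp7 and Dlx3 were the members whose groups did not overlap in this count. Around Sp7, 16, 15 and 16 regions had a peak in f/f and 14, 13 and 10 in KO. Around Dlx3 the numbers were 18, 18 and 21 in f/f and 16, 17 and 11 in KO, and for both genes the exact permutation p was 0.1. All KO libraries were below all f/f libraries in 13.9% of 15069 protein-coding genes with 5 or more regions, and above them in 0.0531%. The other members overlapped. Dlx5 had 7, 7 and 7 regions with a peak in f/f and 6, 7 and 3 in KO, and Dlx6 had 8, 8 and 8 in f/f and 7, 8 and 3 in KO (exact permutation p = 0.4 for each). Atf4 had 12, 12 and 13 regions in f/f and 12, 10 and 9 in KO (exact permutation p = 0.3).

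**Figure D2:**
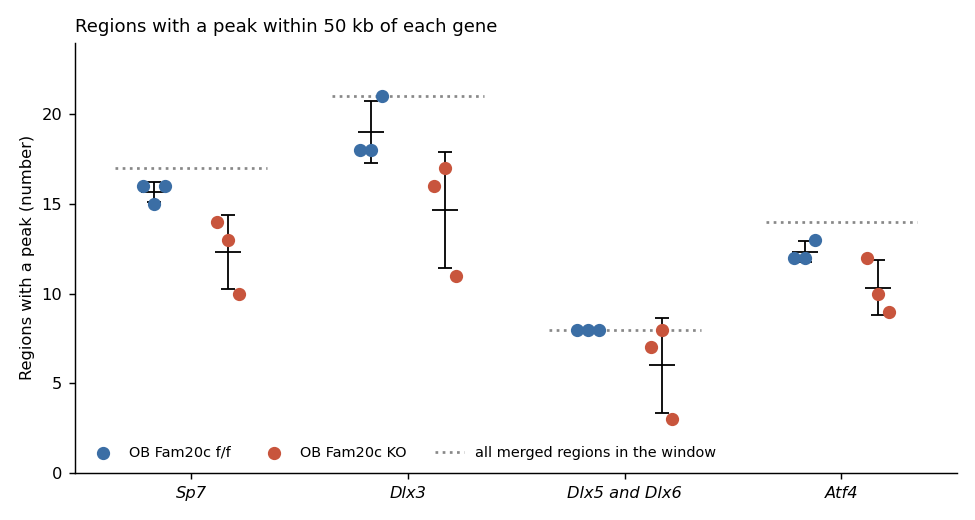
Number of regions with a peak within 50 kb of Sp7, Dlx3, Dlx5 and Dlx6 (1 joint window) and Atf4; points are libraries, bars the mean ± SD of 3 libraries, dotted lines all regions in the window. The KO libraries lie below the f/f libraries at Sp7 and Dlx3 and overlap them at the other loci, with KO replicate 3 lowest at each.

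Of the 60 regions, 32 had a peak in all 6 libraries, which is 53.3%, against 33.4% of all regions. A further 11 (18.3%) had a peak in every library except KO replicate 3, against 19.2% of all regions. A peak in all f/f libraries and in no KO library was found at 3 regions (5.00%), against 3.75% of all regions. Leaving KO replicate 3 aside, the count was also 3, against 3.78%. The opposite was found at 0 regions, also without KO replicate 3, against 0.179% and 2.9% of all regions. The remaining 14 regions had other patterns.

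The 3 regions found in f/f alone lay at different genes. The first, chr11:95120080-95120606, covers the start of Dlx3, the only member whose start had no peak in any KO list. Its −log10 q was 6.62, 9.49 and 12.5 in the f/f libraries, and its fold over the local background was 2.82, 2.76 and 2.68. These peaks were weak, at percentiles 16.8, 27.1 and 28.5 of their lists by −log10 q, with summits 122 to 184 bp inside the gene. The second, chr15:102341562-102342037, lies inside Aaas, 14566 bp from the end of the Sp7 span that is farther from its start. Its −log10 q was 18.4, 20.2 and 37.7, at percentiles 43.5, 47.2 and 54.8, which made it the strongest of the 3 by this measure. The third, chr15:80280613-80281398, lies 23068 bp after Atf4 outside any annotated gene, with −log10 q of 15.6, 13.4 and 22.7 at percentiles 38.8, 36.6 and 42.4.

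Peaks over the starts of the 5 genes ranged from weak at Dlx3 and Sp7 to among the strongest at Atf4. Starts were taken as the higher end of the span for Sp7 and Dlx5 and the lower end for Dlx3 and Dlx6, from knowledge of these genes, because the annotation used here gave a strand only for Atf4. Standing means the percentage of peaks of a library's own list at or below a value, so that it allows for the length of the list only in part. KO replicate 3, with the shortest list, reached a median of 54.4 by −log10 q over the 29849 regions shared by all libraries, against 75.9 to 79.7 in the others.

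At the start of Atf4, the region chr15:80254296-80256145 was among the strongest of every list. By −log10 q it stood at 99.5, 99.7 and 99.7 in f/f and 99.6, 99.7 and 99.5 in KO, with peaks 1736 to 1845 bp wide. The groups overlapped, and the difference in normal scores of the ranks, fitted over all shared regions, was 0.0522 (SE 0.119, limma adjusted p = 0.781). By fold over the background the same peaks stood at 61.3, 69.4 and 64.2 in f/f and 67.1, 69.8 and 80.7 in KO, lower in each library than by −log10 q. The summits lay 21 to 99 bp from the transcript start, 3 of them before it and 3 after it.

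At the start of Dlx5, the region chr6:6881337-6882334 stood by −log10 q at 68.9, 64.5 and 72.5 in f/f and 50.0, 57.2 and 34.9 in KO. All KO libraries were below all f/f libraries, by fold as well, with 76.0, 67.9 and 75.5 against 53.9, 61.3 and 39.5. The difference did not pass the test (score -0.493, SE 0.174, limma adjusted p = 0.0707 by −log10 q and 0.173 by fold). At the start of Dlx6 the region chr6:6863296-6864152 stood at 56.0, 62.3 and 75.9 in f/f and 72.1, 63.6 and 29.1 in KO. These groups overlapped, and the score differed by 0.0224 (SE 0.191, limma adjusted p = 0.946). The region chr6:6862624-6863073 beside it, inside the antisense transcript Dlx6os1, stood at 58.9, 52.1 and 65.0 in f/f and 54.8, 55.9 and 12.9 in KO. The region 2859 bp from Dlx5, chr6:6884927-6885381, was weak in both groups, at 11.1, 28.4 and 22.5 in f/f and 1.74 and 16.2 in KO, with no peak in KO replicate 3.

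Sp7 had a weak peak over its start and a stronger one inside the gene, and the difference between groups passed the test at the start alone. In the inner region, chr15:102358412-102359511, the standing by −log10 q was 62.6, 59.9 and 67.2 in f/f and 71.9, 65.9 and 35.2 in KO, and its score difference did not pass (0.213, SE 0.128, limma adjusted p = 0.26). At the start, chr15:102366568-102367552, −log10 q was 9.45, 15.9 and 31.9 in f/f and 4.36, 3.76 and 3.18 in KO. The standing there was 26.2, 41.0 and 50.9 in f/f and 7.61, 4.60 and 6.61 in KO, a difference of -33.1 percentile points without overlap. The fold over the background was 3.84, 3.85 and 4.86 in f/f and 2.65, 2.36 and 2.61 in KO. The summits lay 138 to 279 bp inside the gene in f/f and 89 to 292 bp outside it in KO. A further region 1046 bp beyond the start, chr15:102368081-102368333, had a peak in f/f replicate 3 alone, at standing 1.79.

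**Figure D3:**
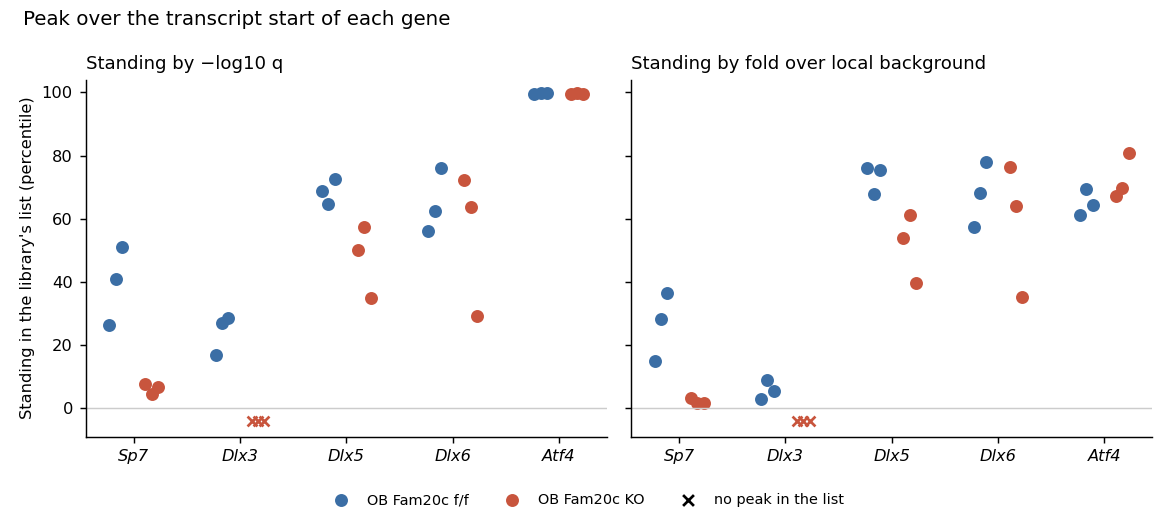
Standing of the peak over the transcript start of each gene within each library's list (percentile, 100 highest), by −log10 q on the left and by fold over local background on the right; each point is 1 library and a cross marks no peak in the list. Sp7 is lower in all 3 KO libraries, Dlx3 has no peak in any of them, and Atf4 is near 100 in all 6 by −log10 q but not by fold.

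Around Dlx3, regions before the start and after the gene had peaks in KO. The nearest before it, chr11:95118454-95119134, 983 bp away, stood at 44.5, 46.9 and 52.2 in f/f and 41.3 and 39.0 in KO replicates 1 and 2, with no peak in KO replicate 3. The next, chr11:95116844-95117678, stood at 84.3, 77.8 and 87.0 in f/f and 81.3, 79.4 and 60.3 in KO. These 2 regions were stronger than the region over the start itself. The region 175 bp after the gene, chr11:95125471-95127183, was strong, at 85.4, 86.8 and 90.7 in f/f and 84.1, 83.7 and 66.1 in KO. It was called as 1 peak in each f/f library and as 2 peaks in each KO library.

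The 32 regions shared by all libraries were then compared by strength. Their median standing by −log10 q was 82.6, 81.1 and 84.9 in f/f and 81.6, 78.4 and 56.1 in KO, and the difference of -10.8 had an exact permutation p of 0.2. Over all shared regions it was -8.07, and on the same 32 regions the difference at the members was -2.87 without KO replicate 3. By fold the medians were 60.3, 65.6 and 64.1 in f/f and 64.0, 62.1 and 40.9 in KO, a difference of -7.65 (exact permutation p = 0.5), which was -0.261 on the same regions without KO replicate 3. With standing taken among the shared regions alone, which allows for the length of the lists, the differences were -6.59 by −log10 q and -0.963 by fold. The difference in median by −log10 q was -18.2 at Dlx3 (11 regions) and -17.5 at Dlx5 and Dlx6 (3 regions), with no overlap between groups at either locus and an exact permutation p of 0.1 for both, as in 26.7% of 12010 protein-coding genes with 3 or more shared regions. At Dlx3 the medians were 73.6, 77.8 and 79.9 in f/f and 64.3, 65.0 and 47.6 in KO. At Dlx5 and Dlx6 they were 58.9, 62.3 and 72.5 in f/f and 54.8, 57.2 and 29.1 in KO. KO replicate 3 was the lowest at both loci and carried much of each difference. The difference in median was -6.8 at Atf4 (8 regions) and -1.6 at Sp7 (10 regions), each with p = 0.9 in that exact test. On ranks among the shared regions, the median change of a region by −log10 q was -5.32 percentile points at Dlx3, -7.44 at Dlx5 and Dlx6, 0.133 at Atf4 and -0.247 at Sp7. By fold it was 1.88 at Dlx3, -11.4 at Dlx5 and Dlx6, 1.91 at Atf4 and 6.79 at Sp7. The sign therefore depended on the measure at Dlx3 and at Sp7.

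To compare single regions on a scale that allows for the length of the lists, ranks were taken among the 29849 regions shared by all libraries. They were turned into normal scores with a mean near 0, and fitted with limma with Benjamini-Hochberg adjustment over all of these regions. Other differences of KO replicate 3 remain on this scale. By fold, the Atf4 start ranked at 78.7 in that library and at 32.6 to 42.6 in the others. By −log10 q, 5 of the 32 member regions were lower in KO (15.6%, against 10.3% of all shared regions) and 2 were higher (6.25%, against 12.2%). By fold, 1 was lower (3.12%, against 1.32%) and 0 were higher (against 1.49%), with 8 of 32 at an unadjusted p under 0.05 in either direction (25.0%, against 21.0% of all shared regions). By −log10 q, 10 of 32 had such a p (31.2%, against 37.0%). All 7 regions lay around Sp7 and Dlx3, and none around Dlx5, Dlx6 or Atf4. On these ranks by −log10 q, all KO libraries were below all f/f libraries at 9 of the 32 regions (28.1%, against 20.9% of shared regions) and above them at 5 (15.6%, against 21.1%). By fold they were below at 6 (18.8%, against 13.9%) and above at 6 (18.8%, against 15.5%). On standing within the whole lists, which the short list of KO replicate 3 lowers, the counts by −log10 q were 9 below (28.1%, against 25.5%) and 0 above (against 3.62%), and by fold 6 below (18.8%, against 16.7%) and 3 above (9.38%, against 9.22%).

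The start of Sp7 was the region called by both measures and the one with the largest fitted difference among the 32. Its rank among shared regions, as a percentile, was 3.24, 8.26 and 9.12 in f/f and 0.0771, 0.0268 and 3.54 in KO by −log10 q. On this scale KO replicate 3 was just above f/f replicate 1, and by fold the groups did not overlap, with 2.88, 6.47 and 8.03 against 0.261, 0.151 and 0.911. The score differed by -1.29 (SE 0.37, limma adjusted p = 0.0347) by −log10 q and by -1.10 (SE 0.235, limma adjusted p = 0.0369) by fold. Without KO replicate 3 it was -1.55 (limma adjusted p = 0.00815), and leaving out any 1 of the other 5 libraries gave limma adjusted p of 0.0617 to 0.115 by −log10 q and 0.0877 to 0.176 by fold. The call was then lost, although the score by −log10 q stayed between -0.961 and -1.42. It was also lost with log2 values scaled to the median (limma adjusted p = 0.0661 by −log10 q and 0.179 by fold) and, by fold, with the replicate numbers as a block (0.101). With only peaks of −log10 q of 5 or more, or with equal list lengths, the region was no longer shared and could not be fitted. Its KO peaks, at −log10 q of 4.36, 3.76 and 3.18, were below the first of these cuts.

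Around Sp7, 2 further regions were called. The region chr15:102315119-102316695, inside Espl1 and 39908 bp from Sp7, fell in KO, with ranks among shared regions of 70.4, 65.2 and 62.8 in f/f and 47.9, 40.9 and 46.3 in KO (score -0.543, SE 0.12, limma adjusted p = 0.0124). The region chr15:102376465-102378413, 9430 bp beyond the Sp7 start in no annotated gene, rose, with 68.5, 78.7 and 84.5 in f/f and 92.5, 91.9 and 87.8 in KO (score 0.570, SE 0.158, limma adjusted p = 0.0308). The groups did not overlap at either region. The first call was lost without KO replicate 2 or 3 (limma adjusted p = 0.0533 and 0.0503). The second was lost without any 1 library other than f/f replicate 3 (0.0501 to 0.0903) and with the replicate numbers as a block (0.0517). The strongest region of the window was over the promoter of the neighbour Sp1, at standing 99.7 to 99.9 in all 6 libraries.

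Around Dlx3, 3 regions fell and 1 rose. The region chr11:95105338-95107346, 12771 bp before Dlx3, had ranks of 45.1, 59.2 and 50.3 in f/f and 27.5, 27.5 and 24.0 in KO (score -0.673, SE 0.129, limma adjusted p = 0.00666). The region chr11:95085290-95086840, 33277 bp before, had 37.7, 48.6 and 31.7 in f/f and 19.3, 17.8 and 14.7 in KO (score -0.672, SE 0.141, limma adjusted p = 0.00992). These 2 were the calls that held without any 1 library but KO replicate 3, without which limma adjusted p was 0.0544 and 0.0822. The region chr11:95165740-95166645, 40444 bp after Dlx3, had 31.1, 26.2 and 37.1 in f/f and 18.5, 8.50 and 19.3 in KO (score -0.558, SE 0.163, limma adjusted p = 0.0372). The region that rose, chr11:95100257-95101003, 19114 bp before, had 11.2, 9.86 and 11.8 in f/f and 26.8, 18.4 and 24.5 in KO (score 0.494, SE 0.122, limma adjusted p = 0.0199). The region that rose lay between the 2 regions before Dlx3 that fell. The call of the region after Dlx3 was lost without any 1 library except KO replicate 1 (0.0623 to 0.138), and that of the region that rose without any f/f library or KO replicate 1 (0.0529 to 0.0752). With equal list lengths, neither the region after Dlx3 nor the region that rose was shared by all libraries, so that neither could be fitted. On chromosome 11, 18.2% of shared regions were lower in KO and 8.18% higher.

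**Figure D4:**
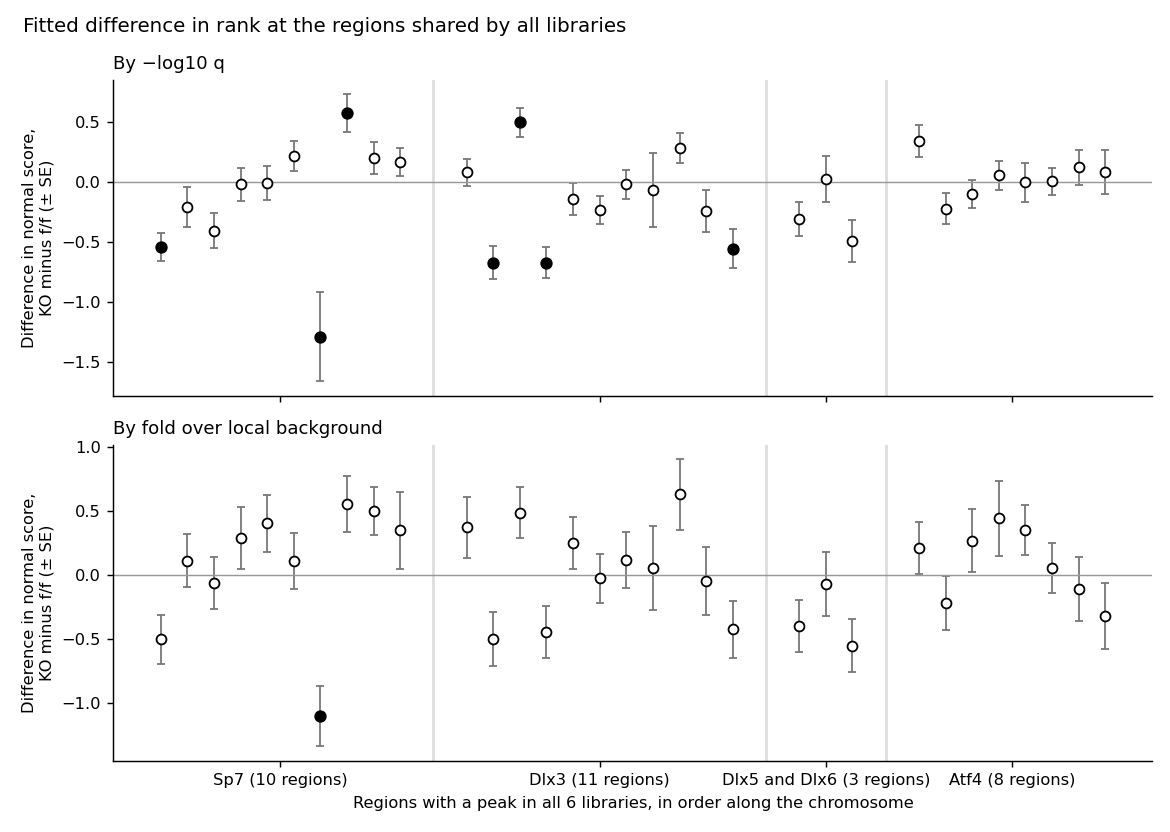
Difference in normal score (KO minus f/f, ± SE) at the 32 regions that all 6 libraries shared, in order along the chromosome within each locus, by −log10 q above and by fold below; filled circles passed the limma fit at an adjusted p of 0.05. The Sp7 start, at -1.29 and -1.10, is the lowest point in both panels, and the other filled points lie at Sp7 and Dlx3 in the upper panel.

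Other genes of the same programme were read the same way. A list of 26 further osteoblast transcription factors had 317 regions within 50 kb, from 32 at Runx2, the master regulator of the lineage, to 1 at Twist1, which restrains Runx2. Of these, 132 had a peak in all libraries. In f/f alone 8 were found (2.52%, against 3.75% of all regions), at 7 genes. In KO alone 1 was found, at Nfatc1 (against 0.179% of all regions). The fit called 8 of the 132 lower and 22 higher in KO by −log10 q (6.06% and 16.7%, against 10.3% and 12.2% of all shared regions). By fold it called 1 lower and 4 higher (0.758% and 3.03%, against 1.32% and 1.49%). The windows of Sp1 and Dlx4, which are on this list, overlap those of Sp7 and Dlx3, so that member regions are counted in it again. The 1 region called lower by fold was the start of Sp7. Of the 8 called lower by −log10 q, 3 lay in the Sp1 window and 2 in the Dlx4 window. The start of Sp7 and the regions 12771 bp before and 40444 bp after Dlx3 were among these. Each of the windows also held 1 region called higher, which was a member region. The start of Dlx3 was among the regions found in f/f alone. A list of 12 stress genes of the Atf4 pathway had 134 regions, from 18 at Atf3 to 5 at Asns, and 64 of them had a peak in all libraries. Regions found in f/f alone numbered 4 (2.99%), with 2 at Ddit3, which encodes the stress factor CHOP, 1 at Trib3 and 1 at Asns, which encodes asparagine synthetase. None was found in KO alone. The fit called 3 of the 64 lower and 4 higher by −log10 q (4.69% and 6.25%, against 10.3% and 12.2% of all shared regions). By fold it called 0 in either direction (against 1.32% and 1.49%).

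Genes with the most similar standing were found from the 6 library means of the window, with a missing peak counted as 0, over 15046 genes with 5 or more regions. Sp7 had means of 60.4, 60.6 and 65.5 in f/f and 57.7, 54.2 and 42.2 in KO, and Git2 and Lzts3 were nearest, at Euclidean distances of 2.4 and 2.91. Dlx3 was nearest to Plch2 (1.6) and Pla2g4a (2.11), and Atf4 to Arc (2.0) and 0610010F05Rik (2.25). Dlx5 and Dlx6, which share most of their regions, had Tril and Glipr1l3 as their 2 nearest genes (3.36 to 5.35). All of these profiles were lowest in KO replicate 3.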

How the data were processed

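ATAC-seq peak lists of 6 libraries, 3 each of OB Fam20c f/f and of the KO line, were analysed. Groups and replicate numbers followed the labels, which name the groups OB and KO, and the name OB Fam20c f/f is the study's. The members and gene lists were chosen with earlier results of these data known. As the study's methods state, reads were aligned to mm10 with BWA and peaks called with MACS2 2.1.2 at q below 0.05. The lists hold each library separately. In the deposited lists each peak has a score, a fold over the local background at the summit (a ratio), the −log10 p, the −log10 q and the summit position; the fold, the −log10 q and the summit were used. Read depth is unknown from the lists, so no read counts, fold changes between groups or counting intervals were computed, and the DESeq2 test of the authors could not be run.

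Peaks were merged where they shared 1 bp, and the highest peak stood for a region. Gene spans came from RefSeq for GRCm38.p6 (in its coordinates the same build as mm10) and were extended by 50 kb. RefSeq promoters were used for sequence. Standing, the percentile within a list, ranged up to 100. Counts and medians were compared by two-sided exact permutation tests over 20 assignments. Ranks among shared regions were fitted with limma 3.58.1 in R 4.3.3, with Benjamini-Hochberg adjustment at 0.05, and the scripts were tested on simulated data. Regions described singly were those within 3 kb of a member, those found in one group alone and those called by limma. Same-numbered libraries did not deviate together (correlations over shared regions of 0.049, -0.122 and -0.138 by −log10 q and 0.03, -0.376 and -0.464 by fold). The highest correlations were between f/f replicate 2 and KO replicate 3 (0.182 by −log10 q and 0.442 by fold). Libraries were not paired. Alternatives were stricter peaks, equal list lengths, 50% overlap, 10 kb windows, other summaries and scalings, a replicate block, and each library left out.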

Additional observations from a re-analysis of the deposited data

How the results depend on the processing

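The difference in regions with a peak (-11.7) and in median standing by −log10 q (-10.8) kept its sign under every alternative tried, but the size did not hold. With all lists cut to equal length they were -1.33 (38 regions) and -3.12 (28 shared regions), in 10 kb windows -2.33 (18 regions) and -9.4, with standing among shared regions the median difference was -6.59 (by fold -0.963), and without KO replicate 3 they were -6.5 and -2.38. The difference in median standing by fold turned to 9.39 with equal lists (28 shared regions) and to 0.511 without KO replicate 3, where 43 regions are shared, with a lowest value of -11.8 on leaving out 1 library. On the 32 regions shared by all libraries, an alternative chosen after seeing the data, it was -0.261 without KO replicate 3, and by −log10 q -2.87. With equal list lengths, 1 of 38 member regions was found in f/f alone (against 2.83% of all regions) and 1 in KO alone (against 2.6%). The fit then called 3 of 28 lower and 1 higher by −log10 q (against 8.95% and 10.4% of all shared regions). By fold it called 0 lower (against 0.0791%). In 10 kb windows, 1 of 18 regions was found in f/f alone (against 3.75% of all regions). By −log10 q, 1 of 13 was called lower and 1 higher (against 10.3% and 12.2% of all shared regions). Leaving out 1 library gave 3 to 5 member regions in f/f alone (3.82% to 6.13% of all regions), 0 to 1 in KO alone (0.218% to 2.93%; 1 without KO replicate 2, in the Atf4 window), 2 to 4 lower (5.06% to 8.52% of all shared regions) and 0 to 2 higher calls (7.17% to 10.0%) by −log10 q, and 0 to 1 lower calls by fold (0.0% to 5.33%). Calls lower by fold were 0 with only peaks of −log10 q of 5 or more (against 0.659% of all shared regions). They were also 0 with log2 values scaled to the median, where the share of all shared regions was below the 1.32% of the main fit. At such shares, 0 calls does not set the members apart from other regions. With the numbers as a replicate block, the differences had p = 0.25 for regions with a peak and for median standing by −log10 q and 0.75 for that by fold, in an exact sign-flip test whose smallest p is 0.25, and the fit called 1 higher by −log10 q and 0 lower by fold. Only f/f replicate 1 correlated best with the library of its own number in the other group, by both measures. The 8 calls made at single regions, 7 by −log10 q and 1 by fold, were recomputed under 82 alternatives in all. Of these, 50 kept the call, 32 lost it and 0 reversed it. This tally has no rate for all called regions beside it, so it cannot show whether member calls were more or less stable than others. By −log10 q, the share of all shared regions called also fell on leaving out any 1 library. Settings in which a region was no longer shared by all libraries are not among the 82. The causes were not tested. The number of reads behind a peak is unknown, which limits what a missing peak in KO replicate 3 can show. By the mapped reads that the study reports, the library with the shortest peak list was not the one with the fewest reads. Its share of uniquely mapped reads was the lowest reported. Such totals do not give the number of reads used to call its peaks. Whether depth or another property of that library shortened its list was not tested.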
